A study of Danio rerio with 4 samples.

Results

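Retained introns are stretches that one transcript form of a gene keeps as exon and another form removes by splicing. In the event tables of 4 libraries of larval zebrafish hearts, 1005 such introns were listed in the retained form in at least 1 library, of 1262 introns listed in either form. They were taken from the single intron-retention entries of each table, with repeated rows removed, and each retained form was paired with the spliced forms of the same gene that overlapped it. The 1005 introns lay at 742 loci, of which 590 held 1 of them and 49 held 3 or more. Where the retained and the spliced form summed to at least 2 FPKM (fragments per kilobase of transcript, scaled to the library's mapped fragments), the retained share was computed as the retained form in percent of that sum. A share was available for 733 introns in the uninjured DMSO library, 799 in the uninjured SIS3 library, 741 in the injured DMSO library and 784 in the injured SIS3 library.

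All 4 libraries came from hearts of Tg(vmhc:mCherry-NTR) larvae at 5 dpf (days post fertilization), a line in which the ventricular vmhc promoter drives a fusion of mCherry with nitroreductase (NTR). Nitroreductase turns metronidazole (MTZ) into a toxin, so the ventricular muscle cells that carry it are ablated. Injured larvae had 5 mM MTZ for 4 h from 72 hpf (hours post fertilization) and were sampled 2 days post treatment. The labels leave it unclear whether the uninjured larvae had MTZ too. From 76 to 124 hpf the larvae were kept in SIS3 (2 µM), which blocks the phosphorylation of Smad3, or in DMSO at 0.2%. Each of the 4 groups had 1 library, so the differences below stand without replicates and without a test, and the study title names TGF-β/Smad3 inhibition during ventricle regeneration as its question.

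Most introns are removed while the transcript is still being made, by the spliceosome, whose choice of sites is steered by SR proteins, which bind exons, and by hnRNPs and other RNA-binding proteins. Transcripts that keep an intron are commonly held in the nucleus or, once exported, are degraded by nonsense-mediated decay if the intron brings an early stop codon. The genes of splicing factors themselves are well-known carriers of retained introns, and the CLK kinases, which phosphorylate SR proteins, are among the regulators of such introns in mammals. A retained stretch whose length is a multiple of 3 can also keep the reading frame, so a table of retained introns also holds short coding stretches that some transcripts skip. The bulk RNA of dissected hearts cannot tell fewer cells of a type from less RNA per cell.

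The libraries listed between 47620 and 56314 events of all kinds, and 13245 to 13837 loci reached 1 FPKM; read counts are not given, so the depth is unknown. The 5 measured heart muscle markers summed to between 8923 and 10032 FPKM, with cmlc1 at 0 in the injured SIS3 library. That narrow range hides members that ran in opposite directions: nppa, a natriuretic peptide, was at 983, 1073, 3718 and 3676 FPKM (uninjured DMSO, uninjured SIS3, injured DMSO, injured SIS3), whereas the other 4 summed to 9049, 7957, 5473 and 5246 FPKM. Other tissues differed between the libraries. The 5 liver markers summed to 200.04 to 341 FPKM in 3 libraries and to 2247 FPKM in the injured SIS3 library. The 4 measured neural markers summed to 41.2 and 25.02 FPKM in the uninjured DMSO and SIS3 libraries, to 0 after injury with DMSO and to 1.82 after injury with SIS3. The 4 measured macrophage markers summed to 19.99 and 24.04 FPKM without injury, and to 243 and 156 FPKM with injury in DMSO and SIS3. In the same order as for nppa, the 2 measured markers of exocrine pancreas summed to 437, 517, 14.6 and 105 FPKM, and the 2 of the eye to 97.98, 82.02, 0 and 1.91 FPKM. The 2 of skin summed to 928, 512, 281 and 268 FPKM, and the 3 of skeletal muscle to 756, 618, 298 and 379 FPKM. The part of these tissues in the differences of retained share was not tested.

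Retained introns were listed more often in both SIS3 libraries. The uninjured DMSO library listed 575 of them, the uninjured SIS3 library 817, the injured DMSO library 558 and the injured SIS3 library 687. The ratio of SIS3 to DMSO was thus 1.42 without injury and 1.23 with it. The spliced entries of the same tables had ratios of 1.03 and 1.05, skipped-exon inclusion entries had 1.05 and 1.09, and transcription starts had 1.05 and 1.07. Of the 1005 introns, 411 were listed as retained in all 4 libraries and 321 in 1 library only, of which 174 were in the uninjured SIS3 library, 78 in the injured SIS3 library, 36 in the uninjured DMSO library and 33 in the injured DMSO library. A further 64 introns at 45 loci were listed as retained in both SIS3 libraries and in neither DMSO library, against 11 introns at 8 loci with the opposite pattern. The retained form was present in both injured and neither uninjured library for 15 introns, and in both uninjured and neither injured library for 34. These patterns were not counted for other event kinds, so no background stands beside them.

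Length separated the introns into kinds that behaved differently. The lengths ran from 5 to 5632 bases, with a median of 116, and the limits of 60 and 300 bases used here were chosen after the values had been seen. The 132 intervals of 60 bases or less, shorter than ordinary vertebrate introns, had a median retained share of 100% in every library, and 60.6% of their lengths were multiples of 3. Among the 579 introns of 61 to 300 bases, the median share was 3.05% in the uninjured DMSO library, 7.44% with SIS3, 4.28% after injury and 4.21% after injury with SIS3. The 294 introns over 300 bases had median shares of 0%, 15.9%, 0% and 7.71% in the same order, and 41.8% of their lengths were multiples of 3. Of these long introns, 103 were listed as retained in the uninjured DMSO library, 219 with SIS3, 85 after injury and 146 after injury with SIS3. Both SIS3 libraries stood above both DMSO libraries here, but an intron entered by being listed as retained in at least 1 library. Of the 294, 94 entered through the uninjured SIS3 library alone and 37 through the injured SIS3 library alone, against 18 and 8 through the uninjured and the injured DMSO library alone, so this choice fixes part of the difference in the medians.

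**Figure D1:**
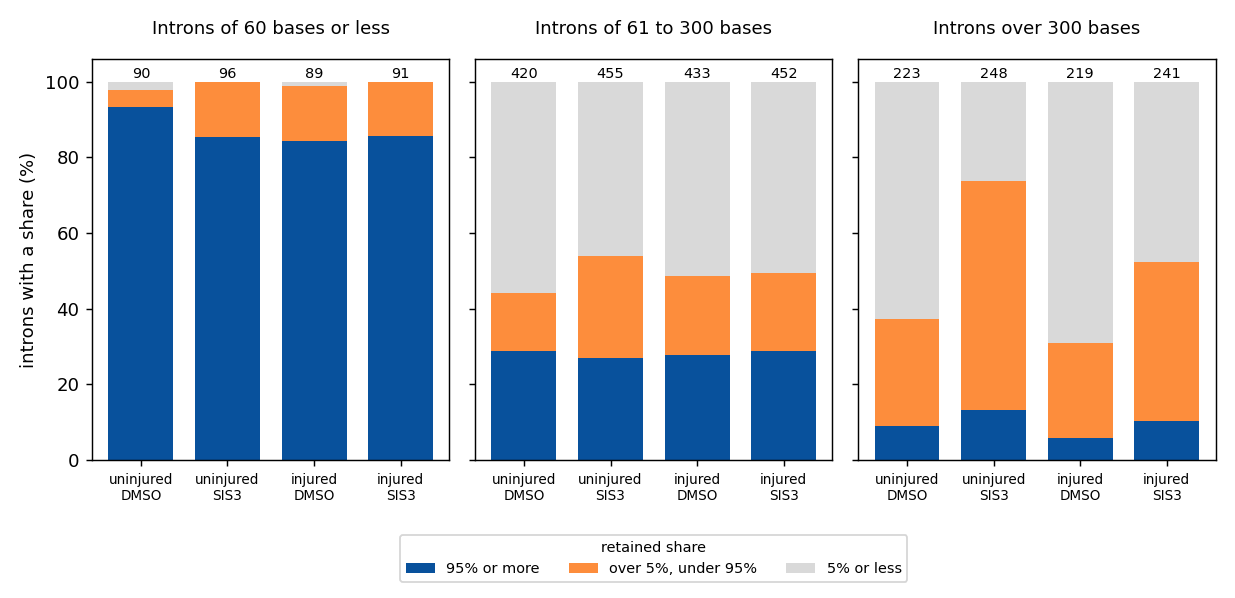
Percent of introns (y axis) in 3 classes of retained share, for each of the 4 libraries (x axis) and 3 classes of intron length; the number above a bar is the number of introns with a share. In introns over 300 bases the class between 5% and 95% held 28.3% of introns in the uninjured DMSO library, 60.5% with SIS3, 25.1% after injury and 41.9% after injury with SIS3.

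Many entries differed little between the libraries. Of the 649 introns with a share in all 4 libraries, 144 were at 95% or more in each, 157 were at 5% or less in each, and the shares of 504 (77.7%) lay within 20 points of each other. Of the 144 constantly kept intervals, 61.1% had a length that is a multiple of 3, against 31.8% of the 157 constantly removed ones. The most abundant was a 15-base interval of EEF1G, a subunit of the translation elongation factor complex, at 1601, 1239, 1086 and 1014 FPKM without injury in DMSO and SIS3 and after injury in DMSO and SIS3, the order used for every group of 4 values below. Intervals of 39 and 54 bases in cirbpb, a cold-inducible RNA-binding protein, and of 41 bases in NDUFB8, a subunit of respiratory complex I, were likewise kept throughout. Some genes of heart development and matrix also held such intervals. The 33-base interval of gata4 and the 5-base intervals of GATA6, both cardiac transcription factors, and of FN1, which encodes fibronectin, were at 100% in all 4 libraries. No spliced form of these intervals was listed in any library. For FN1 the level of that kept form was 16.1, 24.8, 116 and 90.3 FPKM, higher in both injured libraries. The FN1 locus as a whole was at 16.4, 25.2, 118 and 91.1 FPKM, so these values are in effect the level of the gene. What such short intervals represent was not tested.

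Only 44 introns at 34 loci had a share between 5% and 95% in every library, and 18 of these moved by less than 20 points. The 85-base intron of RPS4Y2, a ribosomal protein gene, was the most abundant, at 225, 168, 210 and 230 FPKM retained and shares of 8.06%, 7.79%, 10.99% and 11.5%. The 86-base intron of h3f3a, which encodes a replacement histone, was chosen after its values were seen; its shares were 16.5%, 14.6%, 22.9% and 26.4%. Both were somewhat higher in the injured libraries, by less than the 20 points used below as the size of a called difference.

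Without injury, the SIS3 library had a retained share at least 20 points above the DMSO library at 62 introns (8.71% of 712 with a share in both) and at least 20 points below it at 28 (3.93%). Cassette exons, taken as a reference from the same tables, showed no such skew, with 184 included more (7.32% of 2515) and 181 included less (7.2%). The skew lay in the long introns. Of 215 introns over 300 bases, 48 at 32 loci were higher (22.3%) and 8 were lower (3.72%), whereas introns of 61 to 300 bases gave 13 higher and 14 lower. Of the 48, 11 were listed as retained in the uninjured DMSO library. The spliced form was higher in the SIS3 library at 24 of the 48 and lower at 24. The level of their loci was higher with SIS3 by a median of 0.60 on the log2 scale, with a pseudocount of 1 FPKM. That median counts a locus once for each of its introns among the 48, whereas the median of 0.07 over all 13664 loci counts each locus once. The 48 calls rested largely on retained forms unlisted in the DMSO library. Where both forms had to be listed in both libraries, 9 higher against 1 lower were left among the long introns. Over all introns, that setting left 11 higher against 8 lower, so most of the 62 and 28 were lost. Of the 294 long introns, 94 entered through the uninjured SIS3 library alone and 18 through the uninjured DMSO library alone. The rule of entry thus fixes part of this skew.

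After injury, the SIS3 library also had more introns with a higher than with a lower share, though fewer of them. A higher share was found at 49 introns (6.86% of 714) and a lower one at 21 (2.94%), against 201 (8.28%) and 178 (7.33%) of 2427 cassette exons. Among 214 introns over 300 bases, 22 at 18 loci were higher (10.3%) and 8 were lower (3.74%). Of the 294 long introns, 37 entered through the injured SIS3 library alone and 8 through the injured DMSO library alone. Over all introns it was 78 and 33, so the rule of entry fixes part of these splits too. The higher calls were not confined to long introns here. Of 416 introns of 61 to 300 bases, 22 at 13 loci were higher and 12 at 11 loci lower. Of 84 intervals of 60 bases or less, 5 were higher and 1 was lower. The pair of SIS3 comparisons has no library in common. Of the 649 introns measured in both, 9 were higher in both, which is 18.0% of the 50 higher without injury and 24.3% of the 37 higher after it. These 9 lay in CCNL1, IVNS1ABP (at both of its loci), NKTR, OGT, RBM39, SLTM, SRSF1 and TP53BP1, and 7 of them were over 300 bases. MRAS, TMEM243 and ahnak each held 1 intron that was lower in both. Another 4 introns were higher without injury and lower after it, and 4 were lower without injury and higher after it. IVNS1ABP, TP53BP1, MRAS and TMEM243 were named after their values were seen.

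**Figure D2:**
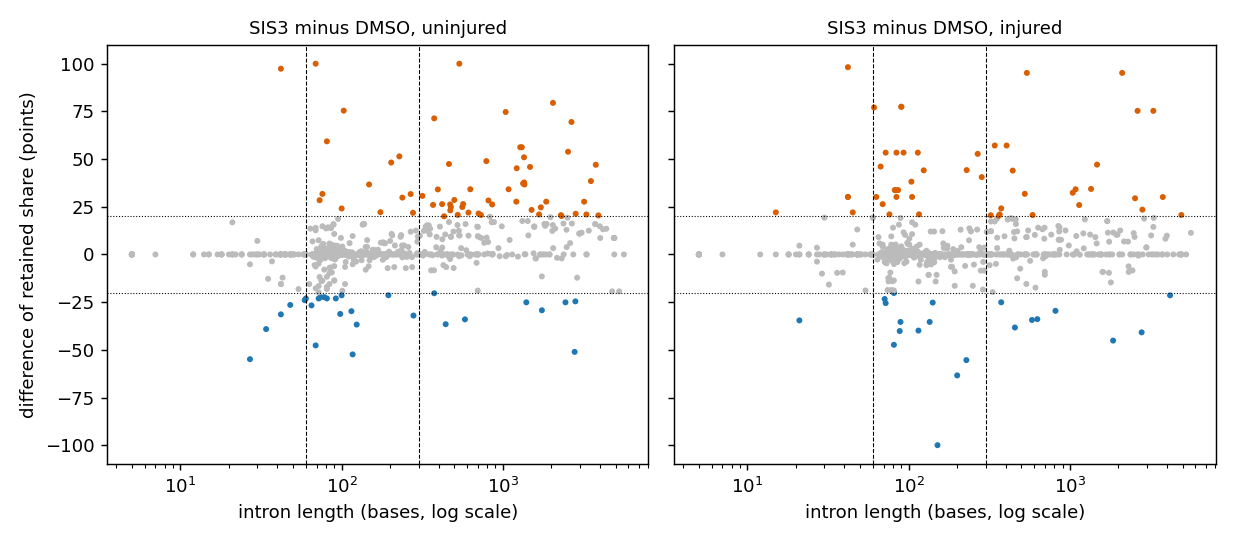
Difference of retained share between the SIS3 and the DMSO library (y axis, points) against intron length (x axis, log scale), without injury on the left and after injury on the right; each point is 1 intron, orange where higher and blue where lower by at least 20 points, and dashed lines mark 60 and 300 bases. To the right of 300 bases, 48 points without injury and 22 after injury lie above the upper dotted line, against 8 and 8 below the lower one.

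**Figure D3:**
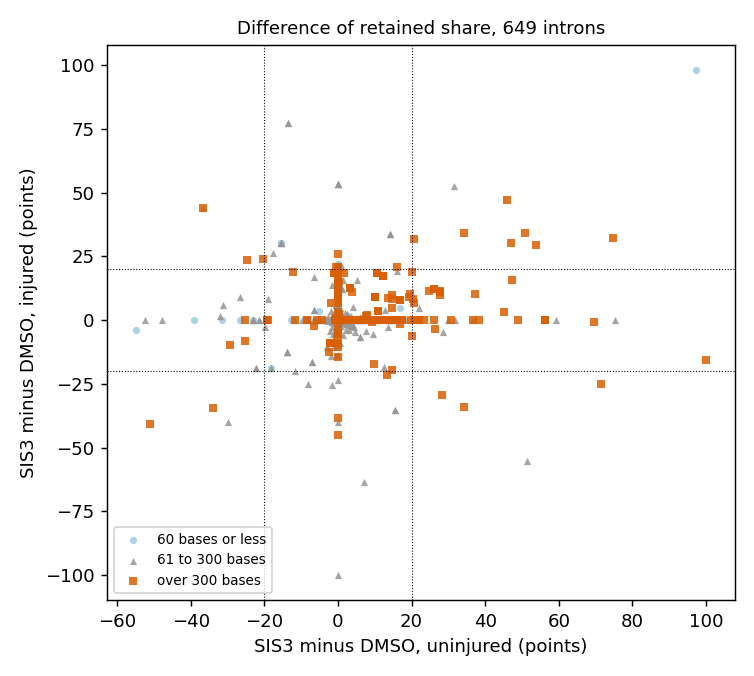
SIS3 minus DMSO difference of retained share without injury (x axis, points) and after injury (y axis, points) for the 649 introns with a share in all 4 libraries, by length class. The 9 introns past 20 points on both axes fill the upper right field, with the 42-base interval of SRSF1 at its corner.

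In both SIS3 comparisons the level of the retained form, like the share, was higher at more introns than it was lower. On a log2 scale with 1 FPKM added and no further scaling, 188 of the 1005 introns (18.7%) were at least 2-fold higher in the SIS3 library without injury and 29 (2.89%) at least 2-fold lower. After injury, 101 (10%) were higher with SIS3 and 43 (4.28%) lower. An intron entered by being listed as retained in at least 1 library, so this choice fixes part of both splits. Without injury, 174 entered through the SIS3 library alone and 36 through the DMSO library alone, against 78 and 33 with injury. Injury in DMSO gave 70 higher (6.97%) and 84 lower (8.36%), and injury in SIS3 gave 80 higher (7.96%) and 161 lower (16%). The split for injury in SIS3 is also partly fixed by entry, with 174 introns through the uninjured SIS3 library alone and 78 through the injured one alone. For the share, 51 were higher and 56 lower, but of 737 introns and not of all 1005, so these splits are not directly comparable. The median over all loci stood 0.17 higher (log2) after injury in DMSO, and scaling by the median of ratios made the split for injury in DMSO 63 and 91. Scaling left the splits with SIS3 at 183 and 35 without injury and at 102 and 34 after it.

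Other retention events of the same tables pointed the same way without injury. A share in both libraries was available for 67 events that keep several introns at once. Of these, 14 were at least 20 points higher with SIS3 and 0 were lower, against 62 and 28 of 712 single introns. Among 120 retained introns with variable exon boundaries, 16 were higher and 7 lower. These are values of 1 library each, from the same pair of libraries as the single introns. The uninjured SIS3 library also listed more of both kinds as retained. It listed 92 of 116 and 250 of 328, against 57 and 178 in the uninjured DMSO library, and this listing fixes part of the skew. After injury the same kinds gave 3 higher and 1 lower of 64, and 6 higher and 9 lower of 117.

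Genes of the splicing apparatus carried retained introns often. Of 19 listed genes for SR proteins and their regulators, 8 (42.1%) had at least 1 of the 1005 introns, as did 14 of 60 (23.3%) genes for hnRNPs and other splicing regulators and 8 of 56 (14.3%) for the spliceosome. Over these 3 lists together it was 30 of 135 genes (22.2%), against 713 of 16196 genes with a symbol (4.402%). The lists for nonsense-mediated decay with the exon junction complex (5 of 18, 27.8%), the cell cycle (6 of 35, 17.1%), contractile and cardiomyocyte genes (6 of 46, 13.04%) and macrophage and inflammation genes (3 of 24, 12.5%) were also above that level. Ribosomal proteins had 8 of 70 (11.4%), the stress response 2 of 28 (7.14%), EMT and matrix 2 of 36 (5.56%), TGF-β and Smad 1 of 25 (4%), liver and other organs 1 of 28 (3.57%), mitochondrial respiration 3 of 91 (3.30%) and glycolysis 0 of 18. The genes of the lists were not matched to the 16196 in level or in number of introns. These lists were compiled with earlier results of these data known.

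With SIS3 and no injury, 7 of 50 measured introns of the 3 splicing lists were higher (14%) and 0 lower, against 8.71% and 3.93% of all introns. Long introns made up 60.3% of the splicing genes' introns and 29.3% of all. Within the long introns, 6 of 28 in splicing genes were higher (21.4%), close to the 22.3% of all long introns. After injury, 8 of 47 (17.02%) were higher with SIS3 and 1 was lower, against 6.86% and 2.94% of all introns. Those 8 lay in 4 genes and on 4 retained exons: 4 overlapping introns of HNRNPM, 2 of PRPF39, and 1 each of RBM39 and SRSF1. Of the long introns in splicing genes, 2 of 27 were higher after injury (7.41%), against 10.3% of all long introns. The median shares of their long introns were 8.61%, 29.1%, 0% and 9.78%, against 0%, 15.9%, 0% and 7.71% of all long introns.

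RBM39, a splicing factor of the U2AF family, showed the pattern in both pairs at 1 of its long introns. Its 1353-base intron (chromosome 11, 24102833 to 24104185, GRCz10) was retained at 1.85, 7.46, 1.91 and 2.94 FPKM, with shares of 15.1%, 66.1%, 19.7% and 54.0%. The spliced form was at 10.4, 3.83, 7.81 and 2.51 FPKM. Both forms together were at 12.2, 11.3, 9.72 and 5.45 FPKM, against a locus level of 31.2, 49.6, 27.8 and 32.0 FPKM. In share, both SIS3 libraries were above both DMSO libraries, by 50.9 points without injury and 34.3 points after it. Its 471-base intron was lower with SIS3 in both pairs, at 17.1%, 14.7%, 16.2% and 3.68%. The 81-base intron downstream also ran the other way, at 13.1%, 1.39%, 20.03% and 0.10%. RBM5, an RNA-binding regulator of exon choice, retained its 1335-base intron at 22.8%, 59.99%, 20.2% and 30.6%, again highest in the uninjured SIS3 library. The 567-base intron of RBM5 on the same retained exon was at 44.3%, 70.8%, 59.1% and 55.8%, so SIS3 was not above DMSO after injury there. The 694-base intron of RBM5 was at 7.42%, 22.0%, 0% and 8.23%.

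Among kinases and cyclins that act on splicing, CCNL1, a cyclin partner of CDK11, kept its 1474-base intron at 0%, 45.9%, 0% and 47.1%. The form was unlisted in both DMSO libraries and at 3.52 and 4.48 FPKM in the SIS3 libraries. CLK2, an SR protein kinase, held 4 listed introns, and its 790-base intron was at 0%, 48.9%, 0% and 0%, retained in the uninjured SIS3 library alone. Its relative CLK1 kept a 432-base intron at 0%, 20%, 0% and 19.0%, and an overlapping 814-base intron at 0%, 28.3%, 29.6% and 0%. The 432-base intron was retained at only 0.95 and 0.67 FPKM in the uninjured and the injured SIS3 library. Both of its forms summed to 2.23 FPKM in the injured DMSO library, just above the minimum of 2. The 814-base intron was retained at no more than 1.87 FPKM. NKTR, a cyclophilin with a domain rich in arginine and serine, retained a 1041-base intron at 0%, 74.7%, 18.5% and 50.9%, in a gene whose level was 2.41, 9.08, 3.61 and 5.14 FPKM. ZRANB2, a zinc finger protein bound to the spliceosome, was at 0%, 47.4%, 0% and 15.9% for its 463-base intron.

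The enzymes of O-GlcNAc cycling are known in mammals for retained introns that respond to the level of this modification. OGT, which adds O-GlcNAc, had 4 listed introns, and the 3771-base one (chromosome 14, 14392832 to 14396602, GRCz10) was retained at 1.41, 7.03, 0 and 2.95 FPKM, giving shares of 21.0%, 68.0%, 0% and 30.1%. The other 3 share 1 retained exon, which reached 8.61 FPKM and 27.7% in the uninjured SIS3 library and was unlisted in both DMSO libraries. In the uninjured SIS3 library both forms of these introns summed to 31.1 FPKM, above the level of the locus. OGA, which removes O-GlcNAc, had 4 listed introns of 1000 to 4382 bases. Where a share was available, they were at 13.5% to 42.6% in the uninjured SIS3 library and at 0% in the others. Those of 1677 and 3296 bases, which also share 1 retained exon, were at 0%, 21.0%, 0% and 0%. The level of the OGT locus was 11.5, 23.0, 8.60 and 11.7 FPKM, and that of OGA lay between 10 and 18.8 FPKM.

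**Figure D4:**
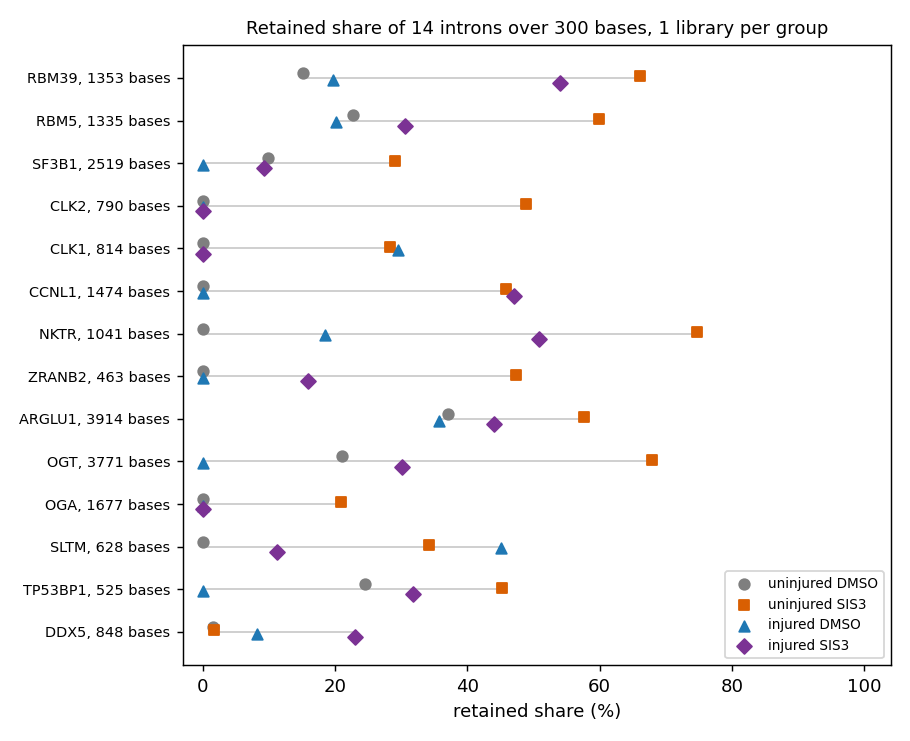
Retained share (x axis, percent) of 14 introns over 300 bases in the 4 libraries, from RNA-processing and related genes that were chosen after their values were seen; each row shows the long intron of that gene with the largest SIS3 difference without injury. In 10 of the rows the uninjured SIS3 library is the highest of the 4, a count that this choice of introns partly fixes. The exceptions are CCNL1, CLK1, SLTM and DDX5.

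Other splicing factors were uneven. SF3B1, a core subunit of the U2 particle, retained a 2519-base intron at 4.84, 16.1, 0 and 4.50 FPKM, with shares of 9.84%, 29.1%, 0% and 9.19%; SIS3 exceeded DMSO by 19.3 points without injury, just under the limit. DDX5, an RNA helicase, was highest in the injured libraries: its 848-base intron was at 2.44, 2.96, 21.2 and 61.7 FPKM and 1.57%, 1.74%, 8.17% and 23.1%, and injury in SIS3 made a difference of 21.4 points. PRPF39, a component of the U1 particle, kept its 116-base intron at 38.0%, 39.2%, 34.6% and 55.6%, highest in the injured SIS3 library. In hnrnpr, named after its values were seen, the 324-base intron was at 28.7%, 41.1%, 59.0% and 76.2%. In share, both injured libraries were above both uninjured ones. Its retained form was at 4.24, 4.19, 2.80 and 4.09 FPKM, so it was not higher after injury. The spliced form was at 10.5, 6.02, 1.95 and 1.28 FPKM, so the higher share went with less of the spliced form. Both forms together stood below the locus level in all 4 libraries. The 4 overlapping introns of HNRNPM at 72 to 114 bases, which share 1 retained exon, were at 53.4% in the injured SIS3 library and at 0% in the others. Both forms together were at 21.4, 32.9, 2.52 and 11.2 FPKM, so the injured DMSO value stood just above the minimum of 2 FPKM. The level of the assigned locus was 13.6, 8.47, 63.6 and 14.5 FPKM, and these introns lay beyond its listed bounds.

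Some long introns of splicing genes did not reach a summed 2 FPKM in every library, so their share could not be followed across all 4. SRSF11, an SR-related protein, listed its 1677-base intron as retained at 25.4 FPKM in the uninjured SIS3 library and did not list it as retained in the others. Its spliced form was at no more than 0.0028 FPKM in any library, while the locus level was 32.8, 33.3, 45.0 and 47.0 FPKM. The 700-base intron of HNRNPK, named after its values were seen, was retained at 19.9 FPKM in the uninjured SIS3 library, with both forms at 0 FPKM in the others. For SRSF6 the 554-base intron was retained at 5.50 and 19.7 FPKM in the uninjured DMSO and SIS3 libraries and was unlisted after injury. KHDRBS1, which encodes the splicing regulator Sam68, kept a 2045-base intron at 0% and 79.5% without injury and was under 2 FPKM for both forms together after it.

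SRSF1, the prototype SR protein, listed a different form in the SIS3 and the DMSO libraries. Its 42-base interval (chromosome 15, 16138743 to 16138784, GRCz10) was retained at 1.19, 40.1, 0.91 and 55.5 FPKM and spliced at 44.2, 0, 48.5 and 0 FPKM. The shares were 2.62%, 100%, 1.83% and 100%, so the SIS3 libraries listed only the kept form and the DMSO libraries almost only the removed one. The level of the locus stayed between 40.1 and 55.5 FPKM. A 42-base stretch is a multiple of 3 and far below the length of the introns described above. The middle of the interval lay beyond the listed bounds of the locus, and whether the stretch is coding was not tested.

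Injury in DMSO went with about as many higher as lower introns, also among the long ones. In DMSO, 29 introns of 670 were higher after injury (4.33%) and 33 lower (4.93%), below the 187 (7.96%) and 236 (10%) of 2350 cassette exons. Of 201 introns over 300 bases, 10 were higher (4.98%) and 12 lower (5.97%). With SIS3, injury gave 51 higher (6.92% of 737) and 56 lower (7.6%), against 8.13% and 9.79% of 2422 cassette exons, and of 225 long introns 21 were higher (9.33%) and 38 lower (16.9%). The latter comparison shares the uninjured SIS3 library with the comparison of SIS3 without injury. Of the 294 long introns, 94 entered through that library alone and 37 through the injured SIS3 library alone, which fixes part of the split. The injury difference itself was at least 20 points larger in SIS3 than in DMSO at 43 introns (6.63% of 649) and at least 20 points smaller at 46 (7.09%), against 258 (11.5%) and 242 (10.8%) of 2243 cassette exons.

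Among the introns that differed with injury, DSP, which encodes desmoplakin of the desmosome, kept a 27-base interval at 100%, 45.1%, 24.2% and 20.4%. NRDC, a metalloprotease, went the other way for its 81-base interval, at 40.7%, 100%, 100% and 100%. Both injured libraries and the uninjured SIS3 library listed only the kept form. The entry with the symbol SNORA75, a small nucleolar RNA, was at 100% in both uninjured libraries and at 58.5% and 63.6% in the injured ones, over 4 overlapping intervals. The 151-base intron of kmt5ab, a histone H4 methyltransferase gene, was at 100% in the injured DMSO library and at 0% in the others, at a summed level between 6.54 and 11.02 FPKM.

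Repeat-coding genes gave a distinct kind of member. Elastin b (elnb), the elastic matrix protein of the outflow tract in teleosts, held 13 listed intervals of 30 to 105 bases, and all 13 lengths are multiples of 3. The 2 overlapping 90-base intervals that start at 40851355 and 40851372 on chromosome 21 were kept at 36.2, 78.4, 5.81 and 18.7 FPKM, with shares of 57.4%, 43.7%, 22.6% and 100%. The locus level was 66.8, 186, 25.7 and 18.7 FPKM, so the injured SIS3 library listed only transcripts that keep all 13 intervals. In ubb, a polyubiquitin gene made of head-to-tail ubiquitin units, the listed intervals were 228 and 456 bases long, that is 76 and 152 codons. The first 228-base interval was at 0%, 51.4%, 55.4% and 0%, at a locus level between 134 and 153 FPKM, most of which neither form accounted for.

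**Figure D5:**
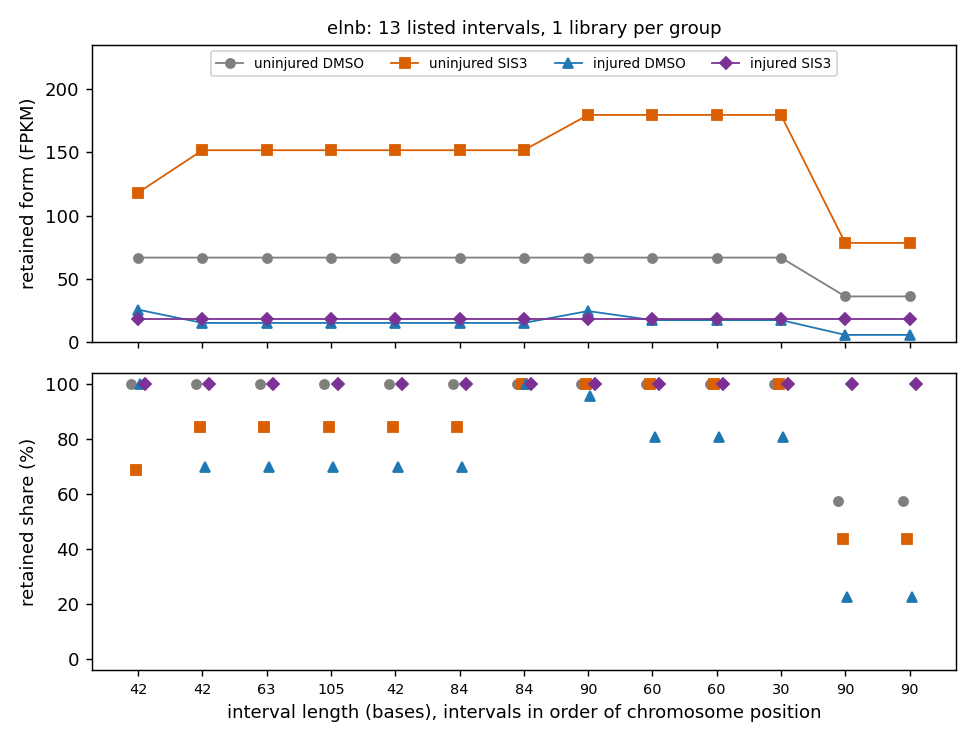
Level of the kept form (upper panel, FPKM) and retained share (lower panel, percent) of the 13 listed intervals of elnb in order of chromosome position (x axis, labelled with interval length), 1 line or symbol per library. The injured SIS3 library is at 100% throughout and at 18.7 FPKM, while the other libraries have their lowest shares at the last 2 intervals, 57.4%, 43.7% and 22.6%.

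Of the 46 contractile and cardiomyocyte genes, 6 held a retained intron (13.04%), against 4.402% of all genes with a symbol. Of 12 genes listed as targets whatever their values, vmhc and rbm20 had no locus under their symbols, 9 had no retained intron listed (smad3a, smad3b, myl7, nppa, nppb, snai2, clk4a, srsf3b and tra2b), and clk2a could be matched only to the CLK2 entries. MYOM1, which encodes the M-band protein myomesin, kept a 1355-base intron at 2.77 FPKM and 37.7% in the uninjured SIS3 library and was unlisted as retained in the others. The 2734-base intron of TNNI1, a troponin I gene, was kept at 22.9 and 26.3 FPKM without injury and was unlisted in either form after it, at locus levels of 268, 188, 229 and 263 FPKM. TTN, the giant sarcomeric spring titin, listed 5 intervals, and its 138-base one was at 100%, 100%, 100% and 94.8%. Of the cell cycle genes, none of 7 measured introns was called in either SIS3 comparison, where 8.71% of all introns were higher and 3.93% lower without injury, and 6.86% and 2.94% after it (too few introns to set against that background). The 21-base interval of cenpe, a kinesin of the kinetochore, was higher after injury in DMSO by 25.2 points. The 85-base intron of CCNB2, a mitotic cyclin, was at 4.77%, 5.02%, 5.23% and 5.44%.

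Of nonsense-mediated decay genes, UPF1, the central helicase of that pathway, kept an intron of 2980 bases at 0%, 10.9%, 8.56% and 12.2%. THOC2, a subunit of the THO complex of RNA export, kept its 462-base intron at 30.1%, 29.0%, 33.4% and 51.8%. None of the 8 introns of this list was called in a SIS3 comparison, too few to set against the same background. With injury in SIS3, the 462-base intron of THOC2 and the 1240-base one that overlaps it on the same retained exon were both higher by 22.7 points. The 8 introns of ribosomal protein genes were uncalled in all 4 comparisons, again too few to set against the background. Over all introns, injury in SIS3 had the most calls, at 6.92% higher and 7.6% lower. RPS3A had 130 FPKM of the retained form in the injured DMSO library, 7.45% of both forms there, and at most 3.39 FPKM elsewhere.

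Loci with many members were mixed. The 16 introns of ahnak, a giant scaffold protein, had shares from 0% to 100% within the uninjured SIS3 library. Its 2787-base intron was at 51.1%, 0%, 40.9% and 0%, low in both SIS3 libraries, while its 3516-base intron was at 0%, 38.5%, 0% and 0%. In epn1a, an endocytic adaptor gene, 6 of the 7 introns were listed as retained in the uninjured SIS3 library alone, at shares of 3.75% to 12.5%. All of these values rest on estimated levels of whole transcripts, so introns of 1 locus are not independent.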

How the data were processed

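Per the file headers, each deposited event table gives an event's type, gene, bounds, strand and FPKM. Per the submitters' processing notes, CASAVA 1.8, HISAT2 2.0.5, HTSeq 0.6.1 and genome build GRCz10 were used; the labels do not name the program that called the events. The tables list only values above 0, so an unlisted form counted as 0. Symbols came from a gene name table (718 of 734 gene IDs); capital symbols are human forms that do not say which zebrafish paralog is meant. Introns inside 1 retained exon share its FPKM (242 of the 1005). In the uninjured DMSO library, both forms summed to within 10% of the locus level at 518 of the 733 introns with a share. At the rest the sum lay further from that level.

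A retained form was paired with every spliced form of the same gene that overlapped it by at least 1 base. Differences were called at 20 points with a summed FPKM of at least 2 in both libraries; retained levels at 2-fold on log2(FPKM + 1). Python 3.11.15, pandas 2.3.3 and numpy 2.4.6 were used, and the functions for shares and calls were checked on simulated data. The simulation planted changes larger than the limit for a call, in introns well above the minimum level. It did not mimic forms that drop out of a listing, so it cannot show how reliable the calls are.

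The introns and gene lists were chosen with earlier results of these data known. Introns were named by rule: the 12 highest retained levels; the 6 largest called rises and falls per comparison and 6 largest differences of differences at 5 FPKM or more; members of the lists; the 8 shortest and 4 longest; loci with 3 or more; those nearest to 2 FPKM; and 12 targets. The values nearest to that limit were 2.00154 FPKM (hhla2b.2) inside it and 1.99582 FPKM (FGG) outside. No genome was used, so no intron sequence is shown. Alternatives were other minima, limits, pseudocounts, pairings and length limits. The introns of 1 gene that the naming rule picked are not reported here.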

Additional observations from a re-analysis of the deposited data

Results flagged for a closer look

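At 9 introns of 7 genes, injury went with a difference of at least 20 points in both the DMSO and the SIS3 libraries, in opposite directions; with 1 library per group these differences were not tested. The values below are the injury difference in SIS3 minus that in DMSO, in points. The 2 overlapping 90-base intervals of elnb had 91.1, with shares of 57.4% and 22.6% in DMSO and 43.7% and 100% in SIS3, without and with injury. The 124-base and 442-base introns of trnau1apb, a gene of selenocysteine incorporation, share a retained exon and had 80.8 and 80.5. The 375-base intron of chchd3b, a mitochondrial cristae gene, had 44.5, with a retained form that did not exceed 1.45 FPKM in any library. The 228-base interval of ubb had -107, with 0% and 55.4% in DMSO and 51.4% and 0% in SIS3. The 537-base intron of ahnak had -115, the 628-base intron of SLTM -68.1 and the 814-base intron of CLK1 -57.9. For ahnak, both forms together were at 2.14 FPKM in the uninjured SIS3 library, just above the minimum of 2. Its retained form was at 0.80 FPKM in the injured SIS3 library. The retained form of CLK1 did not exceed 1.87 FPKM in any library.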

How the results depend on the processing

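No paired analysis was possible because each group has 1 library. Counts are given as higher and lower, for 5 contrasts in turn: the effect of injury within DMSO, the 2 effects of SIS3 (first in injured, then in uninjured hearts), the effect of injury within SIS3, and the contrast of both injury effects. For introns over 300 bases they cover the 2 effects of SIS3 alone. With no minimum of summed FPKM they were 45 and 54, 73 and 36, 87 and 35, 68 and 94, 61 and 77 (long: 35 and 12, 59 and 10), and with a minimum of 5 they were 19 and 27, 26 and 13, 35 and 19, 36 and 28, 31 and 26 (long: 13 and 6, 28 and 5). With 1 FPKM added to each form they were 26 and 25, 36 and 17, 40 and 13, 39 and 34, 28 and 34 (long: 16 and 7, 29 and 4). Calling at 10 points gave 51 and 58, 108 and 48, 130 and 54, 88 and 121, 94 and 108 (long: 61 and 14, 94 and 13), and at 30 points 24 and 19, 35 and 14, 31 and 11, 32 and 31, 25 and 30 (long: 13 and 5, 22 and 3). Pairing with the identical intron alone gave 26 and 19, 34 and 23, 55 and 23, 32 and 48, 27 and 41 (long: 19 and 9, 39 and 6). Where both forms had to be listed in both libraries, which leaves out every form at 0, the counts were 7 and 7, 14 and 6, 11 and 8, 13 and 12, 5 and 11 (long: 5 and 2, 9 and 1). Counting 1 intron per retained exon, an alternative chosen after seeing the data, gave 22 and 19, 33 and 19, 51 and 20, 35 and 45, 27 and 39 (long: 17 and 7, 38 and 5). Long introns taken as over 150 or over 500 bases, also chosen afterwards, gave 54 and 10, or 37 and 6, for SIS3 without injury. In each of these settings both SIS3 comparisons kept more higher than lower introns, in all and among the long ones. All of the settings kept the rule of entry, which fixes part of these splits. At 1 FPKM or more, 365, 514, 375 and 426 introns were listed as retained in the 4 libraries, DMSO before SIS3 and uninjured before injured. For the retained form at 2-fold, a pseudocount of 0.1 FPKM gave 169 and 168, 227 and 117, 347 and 82, 152 and 305, a pseudocount of 5 gave 26 and 33, 22 and 8, 40 and 10, 23 and 37, and a mean retained level of at least 2 FPKM gave 39 and 50, 38 and 15, 65 and 16, 44 and 62. Of 75 called differences of single named introns, 72 kept their side of 20 points with 1 FPKM added and 3 did not. With identical pairing, 52 kept it, 10 did not and 13 had no value; none of the 62 with a value changed direction, and the cause was not tested.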
